A study of Mus musculus with 6 samples.

Results

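The genes of cholesterol synthesis, sterol sensing and uptake were followed in epididymal white adipose tissue (eWAT). They were 42 genes chosen by symbol for their role in the pathway. Of these, 19 encode enzymes that turn acetyl-CoA into cholesterol. Another 6 belong to sterol sensing and the response to it, and 9 to cholesterol uptake and transfer or their control. The products of 4 form or cleave cholesteryl esters. The last group of 4 holds Cyp27a1, Ch25h and Nr1h2, which make or read oxysterols, and the apolipoprotein gene Apoe. Other enzymes and receptors of the pathway were not analysed here. All 42 were among the 16619 genes of the expression table, and all 42 passed the filter on low values that kept 16109 genes. The tissue came from 6-month-old female mice by the study's methods, while the labels call the depot epididymal. Prmt5 AKO mice (Adipoq-Cre, Prmt5 flox/flox; 3 libraries, labelled KO) lose the arginine methyltransferase gene Prmt5 in adipocytes, because Adipoq is an adipocyte promoter, and WT mice (Prmt5 flox/flox without Cre; 3 libraries) carry the same floxed alleles. RNA was taken from whole tissue, so the macrophages, fibroblasts, vessels and other cells of the depot are in each library and keep Prmt5. Whether the libraries come from separate mice is not stated in the labels, and a p-value here reflects the spread among these 6 samples, part of which may be technical.

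Cells make cholesterol from acetyl-CoA through mevalonate, isoprenoids, squalene and a long series of sterols. SREBP-2, the product of Srebf2, is held in the endoplasmic reticulum by Scap and the Insig proteins while sterols are plentiful, and when sterols are scarce it is carried to the Golgi, cut by the site-1 and site-2 proteases (Mbtps1, Mbtps2) and turns on the genes of the pathway together. White adipocytes hold a large store of free cholesterol, much of it taken up from lipoproteins, and their rate of synthesis is low compared with that of liver.

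Values are CPM, reads scaled to an effective library size, in which 1 read was worth 0.0356 to 0.0472 CPM. The recovered reads summed to between 18731215 and 24636063 in the Prmt5 AKO libraries and between 21999576 and 27445096 in the WT libraries. Prmt5 was at 14.6, 22.0 and 28.5 CPM in Prmt5 AKO libraries 1 to 3 and at 36.6, 59.7 and 39.7 CPM in WT libraries 1 to 3, with no overlap between the genotypes (exact two-sided permutation test, p = 0.1, the smallest that 3 against 3 can give). Those reads also hold exons that Cre leaves in place and Prmt5 from cells without Cre. On the first principal component of all genes, which held 64.5% of the variance, Prmt5 AKO library 1 (53.3) lay between WT libraries 1 (74.6) and 3 (40.2), and WT library 2 (-26.1) lay towards Prmt5 AKO libraries 2 (-61.0) and 3 (-81.0). The 9 adipocyte markers summed to between 27893 and 40982 CPM in Prmt5 AKO and between 39883 and 53832 CPM in WT, with none at 0. Of these, 4 had a positive fold change (Adipoq, Plin1, Lipe and Retn) and 5 a negative one, among them Cfd at 4070, 5804 and 6222 CPM in Prmt5 AKO libraries 1 to 3 and 11232, 16319 and 12105 CPM in WT libraries 1 to 3. Of the epididymis epithelium markers, Lcn5, Lcn8, Cst8, Crisp1 and Adam7 were absent from the table and Rnase10 was at 0.512 to 2.99 CPM over the 6 libraries. Of the steroid-making ovary markers, Hsd3b1, Cyp17a1, Cyp19a1, Fshr and Lhcgr were absent, and the list summed to 8.74 to 10.7 CPM in Prmt5 AKO and 8.90 to 10.2 CPM in WT.

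The first question was whether the loss of Prmt5 in adipocytes goes with a different level of the synthesis enzymes. Of the 19 enzymes, 14 had a positive log2 fold change (Prmt5 AKO over WT, on log2(CPM + 0.5)). The median of the 19 was 0.53, against a median of -0.03 over all 16109 genes, of which 48.1% were positive. The sign of the fold change also went with the order of the libraries within a genotype, as given below. Sqle, Dhcr7, Lss and Fdps were higher in every Prmt5 AKO library than in every WT library, and no enzyme was lower in every one. That is 4 of 19 enzymes, beside 8.16% of all genes with every Prmt5 AKO library above every WT library and 6.28% with every one below. Fdps counts among these 4 with only 99 reads in all 6 libraries, and 91.4% of its transcript matched other loci. No enzyme, and none of the 42 genes, was called at a limma adjusted p under 0.05 with a log2 fold change beyond 0.5, and neither was any other gene (0 of 16109, 0%). At an unadjusted limma p under 0.05 there were 5 of 19 enzymes and 8 of 42 genes, beside 1404 of all genes (8.72%). On the recovered reads DESeq2 called 301 genes (1.87%), of which Sqle was the only one of the 42, edgeR's likelihood ratio test called 162 (1.01%) with none of the 42, and edgeR's quasi-likelihood test called 0. In whole tissue, fewer cells of a type and less RNA per cell cannot be told apart.

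**Figure D1:**
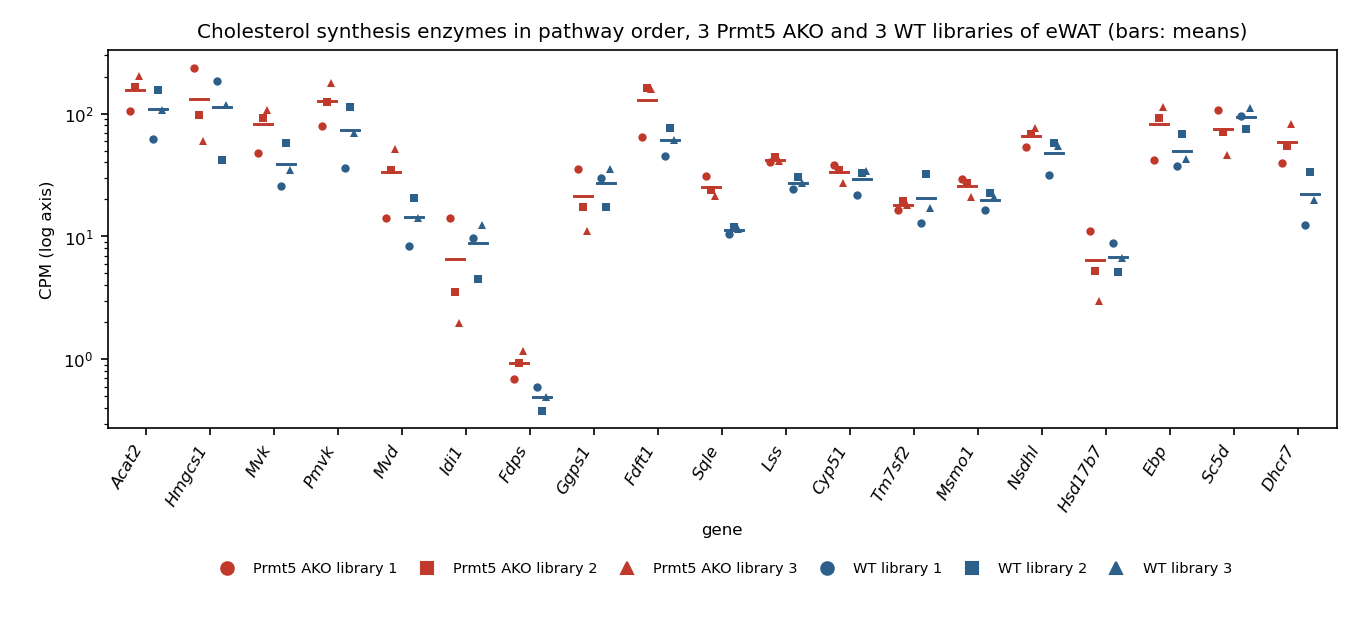
CPM on a log axis of the 19 synthesis enzymes in pathway order, with a point per library (Prmt5 AKO left, WT right of each gene) and a bar at the mean of 3 libraries. Sqle, Lss, Dhcr7 and Fdps show no overlap between genotypes, Fdps with only 99 reads in all 6 libraries. Hmgcs1 spreads widely within each genotype and Idi1 and Hsd17b7 within Prmt5 AKO.

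The promoters of 5 enzymes are given because these genes show the extremes of the pattern described next: Mvk, Mvd and Dhcr7 had fold changes over 1 on the log2 scale, Idi1 had the lowest of the enzymes and Hmgcs1 spread widely within both genotypes. Each is the RefSeq window from 250 bases before to 50 bases after an annotated start, in GRCm38.p6, read in the direction of the gene. Dhcr7 has several annotated starts, and the window of the most downstream is printed because the others held no CCAAT letters. Which start this tissue uses was not tested. Capitals mark the CCAAT box, CCAAT on either strand (ATTGG on the printed one), which the factor NF-Y binds, and in Hmgcs1 also the sterol regulatory element letters TCACNCCAC, which SREBP proteins are known to bind.
Hmgcs1, chr13:119690101-119690400, plus strand: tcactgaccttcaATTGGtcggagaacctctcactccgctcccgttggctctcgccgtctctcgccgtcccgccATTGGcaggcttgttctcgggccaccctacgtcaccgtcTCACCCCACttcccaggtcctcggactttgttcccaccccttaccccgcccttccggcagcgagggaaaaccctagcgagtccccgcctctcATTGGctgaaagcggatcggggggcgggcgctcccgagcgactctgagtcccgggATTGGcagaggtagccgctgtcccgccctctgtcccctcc
Mvk, chr5:114444019-114444318, plus strand: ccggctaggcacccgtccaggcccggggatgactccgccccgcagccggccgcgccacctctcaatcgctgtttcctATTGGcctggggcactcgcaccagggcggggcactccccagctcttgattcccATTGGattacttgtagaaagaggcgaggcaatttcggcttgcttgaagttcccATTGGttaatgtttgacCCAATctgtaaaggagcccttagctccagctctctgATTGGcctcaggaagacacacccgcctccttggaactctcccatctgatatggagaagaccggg
Mvd, chr8:122443373-122443672, minus strand: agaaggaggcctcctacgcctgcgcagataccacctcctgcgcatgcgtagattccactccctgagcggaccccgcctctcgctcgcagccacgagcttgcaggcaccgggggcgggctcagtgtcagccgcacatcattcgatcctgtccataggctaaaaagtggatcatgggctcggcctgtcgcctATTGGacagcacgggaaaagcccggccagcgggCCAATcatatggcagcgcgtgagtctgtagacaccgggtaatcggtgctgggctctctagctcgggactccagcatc
Idi1, chr13:8885356-8885655, plus strand: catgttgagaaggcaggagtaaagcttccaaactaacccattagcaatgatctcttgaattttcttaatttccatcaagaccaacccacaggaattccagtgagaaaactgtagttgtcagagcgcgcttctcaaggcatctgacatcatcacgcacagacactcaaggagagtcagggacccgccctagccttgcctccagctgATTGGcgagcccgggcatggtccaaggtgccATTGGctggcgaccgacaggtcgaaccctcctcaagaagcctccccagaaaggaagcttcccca
Dhcr7, chr7:143829964-143830263, plus strand: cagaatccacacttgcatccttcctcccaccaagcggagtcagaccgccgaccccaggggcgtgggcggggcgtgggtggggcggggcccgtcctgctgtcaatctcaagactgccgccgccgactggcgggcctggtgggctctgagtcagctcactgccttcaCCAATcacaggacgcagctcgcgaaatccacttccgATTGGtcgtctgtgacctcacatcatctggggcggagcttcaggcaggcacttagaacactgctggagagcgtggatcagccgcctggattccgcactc

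RefSeq windows were at hand for 35 of the 42 genes, and for 16 of the 19 enzymes in 19 windows. Fdps, Fdft1 and Sqle had none and were not searched, so the promoter of Sqle, at a log2 fold change of 1.12, is not printed either. The CCAAT letters stood in 15 of 16 enzymes with at least 1 window, Acat2 being the exception, and in 10 of 16 at 2 or more places. They also stood in 5 of 6 genes of uptake and transfer, 3 of 3 ester genes, 3 of 6 sterol-sensing genes and 1 of 4 in the group with Cyp27a1. Of the genes kept that have a window, 42.3% held the letters, and of all 32851 windows of this length 37.4% did. Of the 35 matches in the enzymes, 21 began within the last 100 bases before the start (60%), against 43.6% of the matches in all windows. Mvk held 5 matches and Hmgcs1 held 4, whereas the 2 of Dhcr7 lay in the most downstream of its 3 windows only. The sterol element letters, searched on both strands, stood in Hmgcs1 and in Stard3 among the 35 genes. They stood in 1.42% of the genes kept that have a window and in 1.24% of all windows. The E-box CACGTG stood in 3 of 16 enzymes, against 11.3% of the genes kept that have a window and 7.15% of all windows. The sterol element can share letters at its ends with both other motifs. A match is a match of letters, not a measured binding site.

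**Figure D2:**
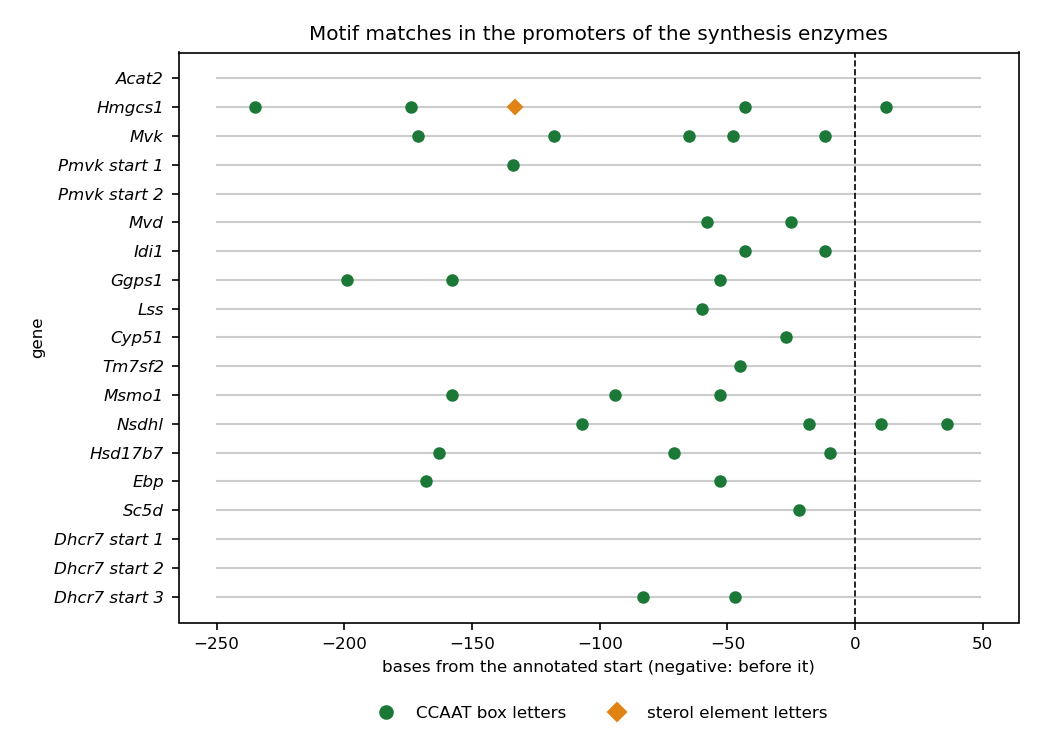
Positions of CCAAT letters (circles) and sterol element letters (diamond) on either strand, in bases from the annotated start, in the 19 RefSeq windows of 16 synthesis enzymes. The 35 CCAAT matches lie between 237 bases before and 34 bases after the start, and windows of Acat2, Pmvk and Dhcr7 without a match are drawn as bare lines.

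The enzymes before squalene did not share a direction. Acat2, the cytosolic thiolase that joins 2 acetyl-CoA, was at 157 ± 49.3 CPM in Prmt5 AKO and 108 ± 46.6 CPM in WT (SD, n = 3 each, as in all such values here), a log2 fold change of 0.58 (standard error 0.40). Acat3 and Tcp1 matched 65.6% of the Acat2 transcript, so its level is uncertain. Hmgcs1, which makes HMG-CoA, was at 237, 97.6 and 59.5 CPM in Prmt5 AKO libraries 1 to 3, against 183, 41.7 and 117 CPM in WT libraries 1 to 3. The highest and the lowest Hmgcs1 library differed 3.97 times within Prmt5 AKO and 4.39 times within WT, and the log2 fold change was 0.21 (standard error 0.64). Its genotype means therefore differed by far less than the libraries of a genotype did.

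Mvk, Pmvk and Mvd, which phosphorylate mevalonate in 2 steps and then decarboxylate it to isopentenyl diphosphate, all had higher means in Prmt5 AKO. Mvk was at 48.0, 92.8 and 106 CPM in Prmt5 AKO libraries 1 to 3, against 25.6, 57.2 and 34.5 CPM in WT libraries 1 to 3, a log2 fold change of 1.06 (standard error 0.41, limma adjusted p = 0.516). Mvd was at 14.1, 34.6 and 51.0 CPM in Prmt5 AKO and at 8.41, 20.7 and 14.2 CPM in WT, a log2 fold change of 1.08 (standard error 0.52, limma adjusted p = 0.590). For both genes Prmt5 AKO libraries 2 and 3 lay above all WT libraries, and library 1 lay within their range. Pmvk, at 127 ± 49.2 CPM in Prmt5 AKO and 72.8 ± 38.2 CPM in WT, overlapped in the same way, with a log2 fold change of 0.87.

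Idi1, which interconverts the isoprenoid units, went the other way on average. It was at 14.1, 3.52 and 1.98 CPM in Prmt5 AKO libraries 1 to 3 and at 9.77, 4.54 and 12.4 CPM in WT libraries 1 to 3. Its log2 fold change of -0.73 had a standard error of 0.67, and Prmt5 AKO library 1 lay above every WT library while libraries 2 and 3 lay below every one. Some 33.3% of the Idi1 transcript matched other loci at 97% identity or more, so its level is uncertain.

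Fdps, which makes farnesyl diphosphate, was barely measurable. It was at 0.696, 0.936 and 1.18 CPM in Prmt5 AKO and at 0.597, 0.379 and 0.498 CPM in WT, 99 reads in all 6 libraries. Uniquely mapped pairs were required and 91.4% of its transcript matched other loci (Gm3571 and Gm43738), so these values cover only a small remainder of the gene and are uncertain. Ggps1, which draws farnesyl diphosphate off to geranylgeranyl diphosphate, was at 21.3 ± 12.7 CPM in Prmt5 AKO and 27.5 ± 9.24 CPM in WT, a log2 fold change of -0.46. Ggps1 overlaps Arid4b on the opposite strand, which was at 47.2, 6.02 and 4.49 CPM in Prmt5 AKO and 41.0, 10.1 and 26.5 CPM in WT, high in the same libraries. How far reads of the pair can be told apart was not tested.

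From squalene synthase on, every enzyme but Tm7sf2, Hsd17b7 and Sc5d had a positive fold change. Fdft1 (squalene synthase), the first enzyme committed to sterols, was at 64.5, 160.0 and 159 CPM in Prmt5 AKO libraries 1 to 3, against 45.1, 77.0 and 61.1 CPM in WT libraries 1 to 3, a log2 fold change of 0.98 (standard error 0.41, limma adjusted p = 0.561). Prmt5 AKO library 1 lay within the WT range and libraries 2 and 3 lay above every WT library. Fdft1 overlaps the lysosomal protease gene Ctsb on the opposite strand, and 54.7% of its transcript matched Ctsb and another locus. Ctsb itself was at 2667 ± 501 CPM in Prmt5 AKO and 2103 ± 463 CPM in WT, and the Fdft1 level is uncertain.

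Sqle (squalene epoxidase, an oxygen-dependent and tightly controlled step) gave the smallest p of the 42 genes. It was at 30.8, 24.0 and 21.2 CPM in Prmt5 AKO libraries 1 to 3, against 10.5, 11.96 and 11.5 CPM in WT libraries 1 to 3. The lowest Prmt5 AKO library was above the highest WT library, and the means, 25.4 ± 4.91 CPM in Prmt5 AKO and 11.3 ± 0.771 CPM in WT, stood at a ratio of 2.24. Its log2 fold change was 1.12 (95% interval 0.48 to 1.75, standard error 0.27, limma adjusted p = 0.336). DESeq2 gave it an adjusted p of 0.00837, past the threshold, edgeR's likelihood ratio test 0.0922 and the quasi-likelihood test 0.358, and over all alternatives its adjusted p ran between 0.00837 and 0.955. Sqle lies at chromosome 15, 59315077 to 59331192 (GRCm38), and no other gene overlapped it or matched its transcript. Sqle thus rose under DESeq2 only among the tests with genotype as the sole term.

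Lss (lanosterol synthase), which closes the sterol rings, had a narrow spread in both genotypes. It was at 40.7, 44.1 and 40.9 CPM in Prmt5 AKO and at 24.2, 30.5 and 27.3 CPM in WT, without overlap, a log2 fold change of 0.61 (standard error 0.24, limma adjusted p = 0.531). The ratio of Sqle to Lss CPM was 0.757, 0.544 and 0.520 in Prmt5 AKO libraries 1 to 3, against 0.432, 0.392 and 0.422 in WT libraries 1 to 3. This ratio too was higher in each Prmt5 AKO library than in each WT library. The ratios of Hmgcs1 to Mvk, Dhcr7 to Sc5d, Scap to Insig2 and Soat1 to Nceh1 were computed as well, and each overlapped between genotypes.

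The middle steps, which strip methyl groups and move double bonds, had fold changes of both signs, all smaller than those of Sqle and Dhcr7. Cyp51 (lanosterol 14-demethylase), Msmo1 (sterol 4-methyl oxidase), Nsdhl (sterol 4-carboxylate dehydrogenase) and Ebp (the sterol isomerase) had log2 fold changes of 0.19, 0.36, 0.49 and 0.66, each with a 95% interval that spans 0. Tm7sf2 (a sterol 14-reductase), Hsd17b7 (the 3-keto sterol reductase) and Sc5d (sterol 5-desaturase) had log2 fold changes of -0.10, -0.23 and -0.39, also with intervals that span 0. Tm7sf2 overlaps Vps51 on the same strand, and Vps51 was at 41.6 ± 4.33 CPM in Prmt5 AKO and 21.3 ± 3.74 CPM in WT, so the level of Tm7sf2 (17.95 ± 1.44 CPM in Prmt5 AKO, 20.7 ± 10.2 CPM in WT) is uncertain. Cyp51 overlaps Akap9 on the opposite strand.

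Dhcr7 (7-dehydrocholesterol reductase), which makes cholesterol in the final step of one branch, had the highest fold change of the 42 genes. It was at 39.3, 54.5 and 81.6 CPM in Prmt5 AKO libraries 1 to 3, against 12.5, 33.7 and 19.7 CPM in WT libraries 1 to 3. The genotypes did not overlap, but Prmt5 AKO library 1 and WT library 2 stood only 5.65 CPM apart. The log2 fold change was 1.44 (95% interval 0.47 to 2.41, standard error 0.42, limma adjusted p = 0.404), and DESeq2 gave an adjusted p of 0.121. Dhcr7 lies at chromosome 7, 143823145 to 143848410. Sc5d, which makes the substrate of Dhcr7, was at 107, 71.2 and 46.2 CPM in Prmt5 AKO and 95.7, 75.3 and 111 CPM in WT. The 2 neighbouring steps thus had opposite signs, with the Sc5d difference inside the spread of its libraries.

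**Figure D3:**
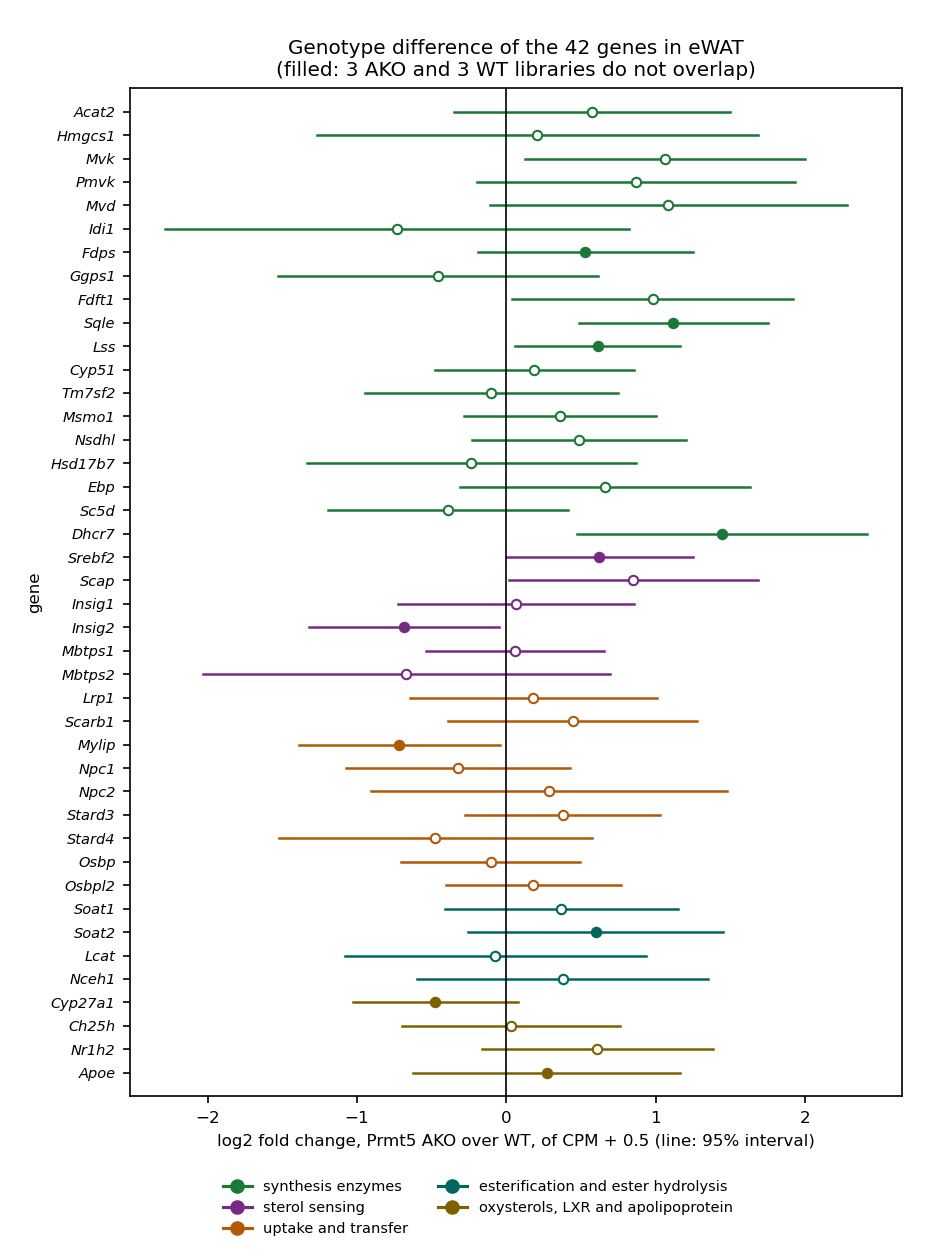
Log2 fold change (Prmt5 AKO over WT, on log2(CPM + 0.5)) of each of the 42 genes with its 95% interval from limma, coloured by role, with filled points where the 3 Prmt5 AKO and 3 WT libraries do not overlap. Dhcr7 (1.44) and Idi1 (-0.73) mark the ends, and most intervals span 0.

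The enzymes also varied within each genotype, in opposite directions for different enzymes. Within Prmt5 AKO, library 1 was the highest for 8 of 19 enzymes (Hmgcs1, Idi1, Ggps1, Sqle, Cyp51, Msmo1, Hsd17b7 and Sc5d) and the lowest for the other 11, so it was never in between. For those 11, WT library 2 was the highest WT library in 10, and for the 8 it was the lowest in 5. Over all genes kept, where Prmt5 AKO library 1 was the lowest of its genotype, WT library 2 was the highest of its own in 72.5%, and where library 1 was the highest, WT library 2 was the lowest in 73.0%. The sign of the fold change went with this order. It was positive in 10 of the 11 enzymes (median 0.66) and in 4 of the 8 (median -0.02). Over all genes kept it was positive in 5191 of 6767 with library 1 lowest (median 0.31) and in 1547 of 7260 with library 1 highest (median -0.39). The exonic length had a median of 4794 bases in the 8 enzymes and 2853 bases in the 11, and over all genes the medians were 5459 and 2944 bases. The 5 nuclear-retained RNAs, Neat1 among them, went with the same libraries, with sums of 2098, 151 and 158 CPM in Prmt5 AKO libraries 1 to 3 and 2166, 707 and 1657 CPM in WT libraries 1 to 3. The part of these differences between libraries in the enzyme values was not tested.

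The counts at an unadjusted p under 0.05 moved both ways as single libraries were left out. Without Prmt5 AKO library 1 they were 5681 of all genes (35.3%) and 18 of the 42, and limma then called 84 genes, none of the 42. Without Prmt5 AKO library 2 or 3 or WT library 1 or 3 they were between 641 and 775 of all genes and 2 of the 42 each time, and without WT library 2 they were 2003 of all genes (12.4%) and 8 of the 42. The enzyme median was 0.63 without Prmt5 AKO library 1 and 0.64 without WT library 2, and ran between 0.41 and 0.64 as each of the 6 was left out. The log2 fold change of Idi1 was -1.47 without Prmt5 AKO library 1 and -0.19 without library 3, and that of Mvd was 1.60 and 0.69. Over the 6 omissions Ggps1 ran between -0.90 and -0.08, Sc5d between -0.69 and -0.09, Acat2 between 0.23 and 0.88 and Pmvk between 0.44 and 1.25, whereas Sqle ran between 0.97 and 1.23.

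**Figure D4:**
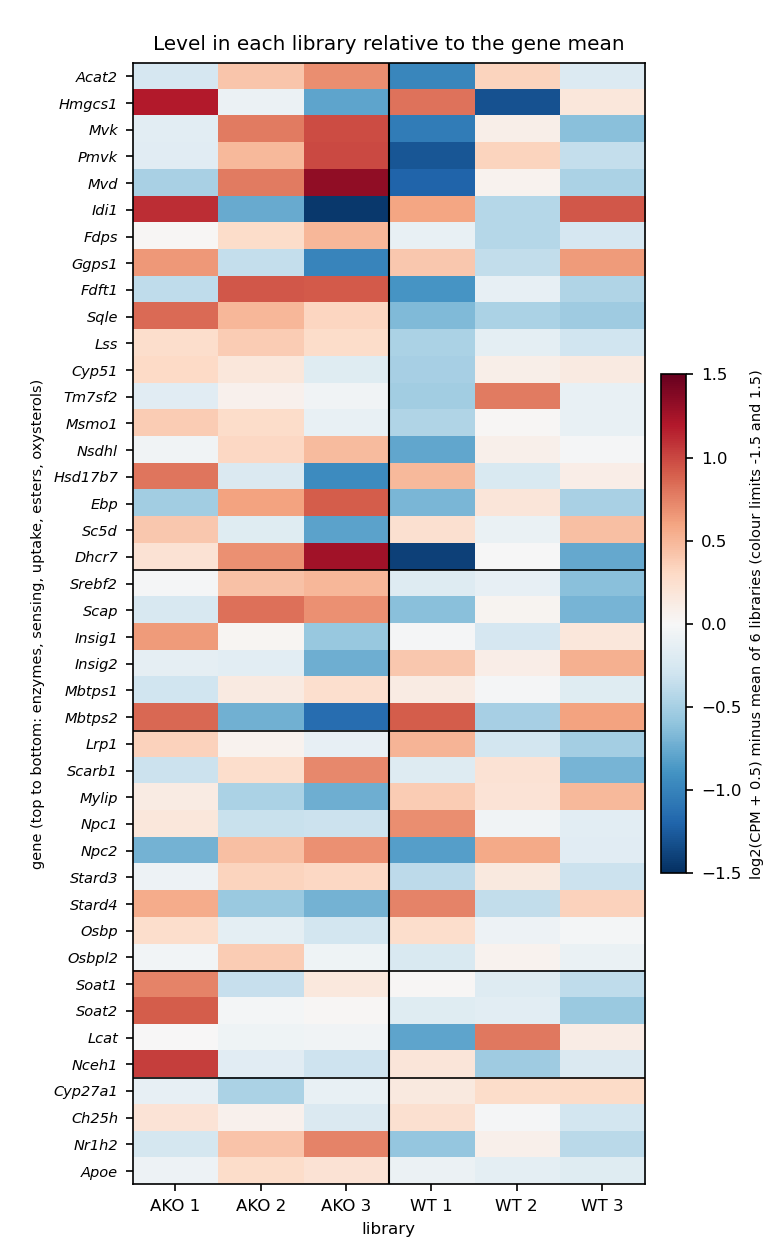
Log2(CPM + 0.5) of the 42 genes in each library minus the gene's mean over the 6 libraries (red above, blue below), with Prmt5 AKO left of WT and lines between the roles. Hmgcs1, Idi1, Hsd17b7 and Mbtps2 are red in Prmt5 AKO library 1 and blue in library 3, whereas Mvd, Mvk, Ebp and Npc2 show the reverse.

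The second question was whether the sterol-sensing genes differed as well. Of the 6, Srebf2 was higher and Insig2 lower in every Prmt5 AKO library than in every WT library, and the median log2 fold change was 0.06. Over all genes, 8.16% were higher and 6.28% lower in the same way. Srebf2, the precursor of the transcription factor SREBP-2, was at 59.98, 82.5 and 86.0 CPM in Prmt5 AKO libraries 1 to 3, against 52.9, 55.6 and 39.2 CPM in WT libraries 1 to 3, a log2 fold change of 0.62 (standard error 0.27, limma adjusted p = 0.573). Scap, its escort, was at 51.8, 109 and 98.5 CPM in Prmt5 AKO and 39.4, 63.0 and 37.5 CPM in WT, a log2 fold change of 0.85 (standard error 0.36, limma adjusted p = 0.565). Prmt5 AKO library 1 lay below WT library 2 for Scap, so the genotypes overlapped there and did not for Srebf2. Another locus matched 18.9% of the Scap transcript.

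The Insig genes, whose proteins hold Scap in place, had fold changes of different sign. Insig2 was at 50.3, 49.5 and 33.1 CPM in Prmt5 AKO libraries 1 to 3, against 73.1, 59.2 and 79.9 CPM in WT libraries 1 to 3, a log2 fold change of -0.68 (95% interval -1.32 to -0.05, standard error 0.28, limma adjusted p = 0.543). Insig1, itself a target of SREBP, was at 193, 126 and 82.9 CPM in Prmt5 AKO and 122, 104 and 139 CPM in WT, a log2 fold change of 0.07 with an interval of -0.72 to 0.86. The ratio of Insig1 to Insig2 CPM was 3.83, 2.55 and 2.51 in Prmt5 AKO, against 1.67, 1.75 and 1.74 in WT, without overlap and with a narrow WT range. The proteases of the Golgi gave no shared direction. Mbtps1 was at 116 ± 21.9 CPM in Prmt5 AKO and 110 ± 11.7 CPM in WT, and Mbtps2 was at 8.24 ± 6.80 CPM in Prmt5 AKO and 11.9 ± 5.44 CPM in WT, with Prmt5 AKO library 1 and WT library 1 the highest of their genotypes.

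Among the 9 genes of uptake and transfer, 5 fold changes were positive and 4 negative, with a median of 0.18. Only Mylip was without overlap, beside 8.16% of all genes higher and 6.28% lower in every Prmt5 AKO library. Mylip encodes a ubiquitin ligase (IDOL) that sends lipoprotein receptors to the lysosome and is induced by the sterol receptor LXR. It was at 46.1, 30.4 and 25.3 CPM in Prmt5 AKO libraries 1 to 3, against 55.4, 48.8 and 59.4 CPM in WT libraries 1 to 3, a log2 fold change of -0.72 (95% interval -1.39 to -0.05, standard error 0.29, limma adjusted p = 0.550). The highest Prmt5 AKO library and the lowest WT library were 2.69 CPM apart. Scarb1, the HDL receptor through which adipocytes exchange cholesterol, was at 209 ± 72.9 CPM in Prmt5 AKO and 152 ± 47.0 CPM in WT, and Lrp1, a large endocytic receptor for Apoe-bearing particles, was at 620 ± 104 CPM in Prmt5 AKO and 568 ± 224 CPM in WT. Both intervals span 0.

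Npc2 and Npc1, which pass cholesterol out of the lysosome, had fold changes of opposite sign. Npc2, the soluble carrier, was at 1323 ± 576 CPM in Prmt5 AKO and 1083 ± 515 CPM in WT, and Npc1, the membrane protein that takes cholesterol from it, was at 21.0 ± 4.57 CPM in Prmt5 AKO and 27.0 ± 9.43 CPM in WT. Npc1 overlaps Rmc1 on the opposite strand. The transfer proteins Stard3 (late endosome), Stard4 (cytosol), Osbp and Osbpl2 (contact sites of the endoplasmic reticulum) had log2 fold changes of 0.38, -0.48, -0.11 and 0.18, each with an interval that spans 0.

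**Figure D5:**
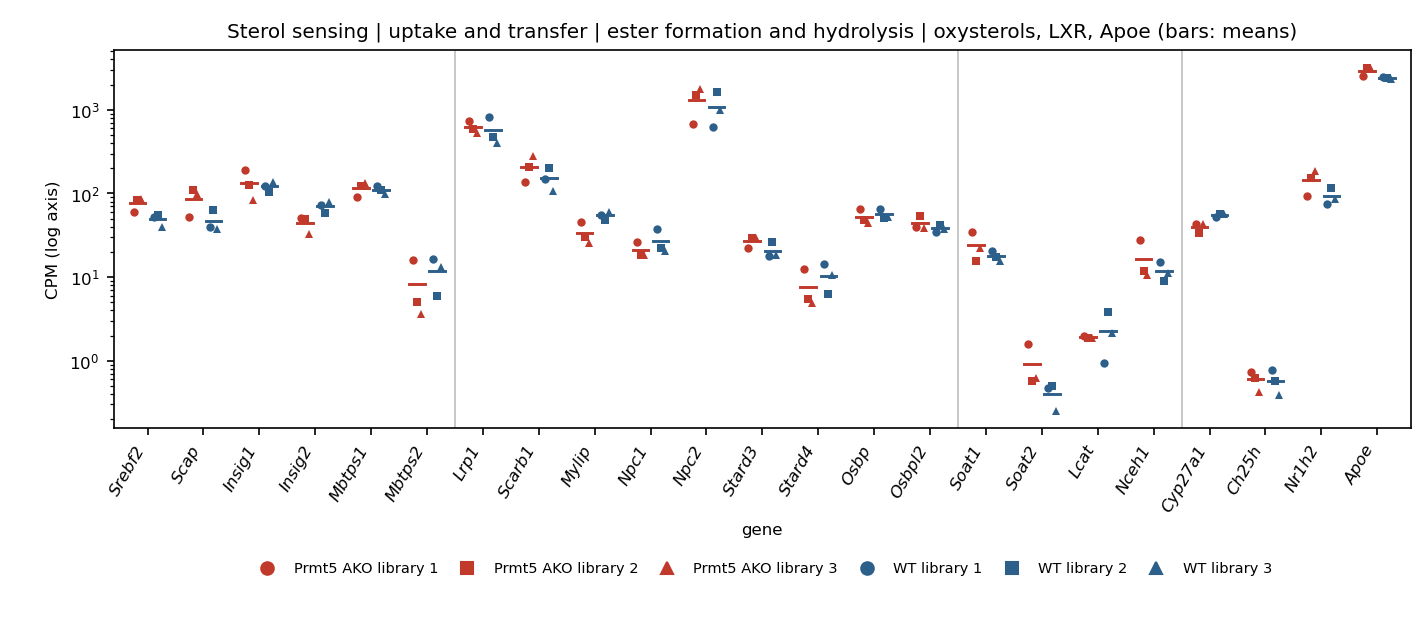
CPM on a log axis of the 23 genes outside the synthesis enzymes, with a point per library (Prmt5 AKO left, WT right of each gene), a bar at the mean of 3 libraries and grey lines between the roles. Srebf2, Soat2 and Apoe lie higher, and Insig2, Mylip and Cyp27a1 lower, in all Prmt5 AKO libraries than in all WT libraries. Soat2 had only 91 reads in all 6 libraries.

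The third question was whether esterification and oxysterol genes differed. Soat1, the acyltransferase that makes cholesteryl esters in most cells, was at 24.1 ± 9.35 CPM in Prmt5 AKO and 17.8 ± 2.48 CPM in WT, and Nceh1, which cleaves them, was at 16.7 ± 9.54 CPM in Prmt5 AKO and 11.8 ± 3.03 CPM in WT. For both, Prmt5 AKO library 1 was the highest of the 6. Soat2, the acyltransferase of liver and intestine, was at 1.58, 0.580 and 0.614 CPM in Prmt5 AKO and 0.469, 0.492 and 0.249 CPM in WT, 91 reads in all, which is near the limit of detection although the genotypes did not overlap. Lcat, a plasma enzyme that esterifies cholesterol on HDL and is made mainly by liver, was at 1.99, 1.87 and 1.89 CPM in Prmt5 AKO and 0.939, 3.79 and 2.17 CPM in WT. Its log2 fold change was -0.07 with an interval of -1.08 to 0.93, which holds values as large as the 0.61 of Lss, so a difference of that size was not detectable with these libraries. The 5 liver markers in the table summed to 12.99, 112 and 27.5 CPM in Prmt5 AKO and 49.6, 438 and 152 CPM in WT, highest in WT library 2, where Lcat was highest too, and their part in the Lcat level was not tested.

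Cyp27a1, the mitochondrial sterol 27-hydroxylase, was lower in every Prmt5 AKO library. It was at 42.7, 33.5 and 43.2 CPM in Prmt5 AKO libraries 1 to 3, against 51.9, 56.6 and 57.1 CPM in WT libraries 1 to 3, a log2 fold change of -0.48 (95% interval -1.03 to 0.08, limma adjusted p = 0.596). Ch25h, which makes 25-hydroxycholesterol, was at 0.597 ± 0.160 CPM in Prmt5 AKO and 0.576 ± 0.188 CPM in WT, 83 reads in all. Nr1h2, the LXR-beta receptor that reads oxysterols, was at 144 ± 47.9 CPM in Prmt5 AKO and 92.3 ± 22.5 CPM in WT, a log2 fold change of 0.61 with overlap between genotypes.

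Apoe, the apolipoprotein that carries cholesterol out of macrophages and adipocytes, was the most abundant of the 42 per kilobase of exon, at 1370 CPM per kb in Prmt5 AKO and 1129 CPM per kb in WT, followed by Npc2 at 243 CPM per kb in Prmt5 AKO and 199 CPM per kb in WT. Apoe was at 2508, 3199 and 3080 CPM in Prmt5 AKO libraries 1 to 3, against 2500, 2399 and 2345 CPM in WT libraries 1 to 3. The genotypes did not overlap by a margin of only 7.71 CPM between Prmt5 AKO library 1 and WT library 1, and the log2 fold change was 0.27 (limma adjusted p = 0.752). The 11 macrophage markers summed to 2258, 2775 and 3771 CPM in Prmt5 AKO and 1451, 2895 and 2323 CPM in WT, and 9 of the 11 had a positive fold change. The fibroblast markers, of which 5 of 6 had a negative fold change, summed to 2375 to 3274 CPM in Prmt5 AKO and 3751 to 5762 CPM in WT. The T cell markers, positive in 5 of 5, summed to 24.1, 29.5 and 73.9 CPM in Prmt5 AKO and 9.47, 22.9 and 17.6 CPM in WT, and the mesothelium markers, negative in 6 of 6, to 85.9 to 468 CPM in Prmt5 AKO and 251 to 392.2 CPM in WT. The part of these cells in the levels of Apoe, Npc2, Lrp1, Soat1 and the enzymes was not tested.

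Over all roles, 7 of the 42 genes were higher (Fdps, Sqle, Lss, Dhcr7, Srebf2, Soat2 and Apoe) and 3 were lower (Insig2, Mylip and Cyp27a1) in every Prmt5 AKO library than in every WT library, beside the 8.16% and 6.28% of all genes. Of the 7, Fdps and Soat2 had only 99 and 91 reads in all 6 libraries. The levels of the synthesis enzymes spanned a wide range: per kilobase of exon, Pmvk and Acat2 stood at 74.2 and 61.7 CPM per kb in Prmt5 AKO and 42.5 and 42.6 CPM per kb in WT, whereas Sqle stood at 4.57 CPM per kb in Prmt5 AKO and 2.04 CPM per kb in WT.

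Genes next to the pathway were counted from lists chosen by role. Of 15 genes of the isoprenoid branch (prenylation, ubiquinone and dolichol), 8 had a positive and 7 a negative fold change, with a median of 0.01, and none was called. Rce1, the protease that trims prenylated proteins, was at 105, 135 and 211 CPM in Prmt5 AKO, against 33.6, 50.04 and 34.6 CPM in WT, a log2 fold change of 1.88 (standard error 0.33, limma adjusted p = 0.205). The genotypes of Rce1 did not overlap.

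Of 8 genes of sterol-regulated degradation in the endoplasmic reticulum, 3 were positive and 5 negative with a median of -0.04, and the ubiquitin ligases Rnf145 and Rnf139 had log2 fold changes of -0.70 and -1.03 (limma adjusted p = 0.502 and 0.542). Rnf145 was lower in every Prmt5 AKO library, at 43.3, 35.6 and 30.3 CPM in Prmt5 AKO and 67.9, 51.6 and 58.6 CPM in WT. Of 17 further sterol carriers, 6 were positive and 11 negative with a median of -0.33. Among them Gramd1a, which moves cholesterol from the plasma membrane to the endoplasmic reticulum, was at 231, 144 and 159 CPM in Prmt5 AKO, against 52.6, 72.0 and 52.2 CPM in WT, a log2 fold change of 1.58 (standard error 0.29, limma adjusted p = 0.223), without overlap. Osbpl1a, an endosomal relative of Osbp, was lower in every Prmt5 AKO library (log2 fold change -0.71, limma adjusted p = 0.531). Of 7 other oxysterol and bile acid enzymes, 5 were in the table, with 2 positive and 3 negative and a median of -0.07. Cyp39a1, an oxysterol 7-hydroxylase, was at 2.97, 2.59 and 1.04 CPM in Prmt5 AKO and 6.27, 4.01 and 5.62 CPM in WT (log2 fold change -1.17, limma adjusted p = 0.486), and Cyp8b1, the sterol 12-hydroxylase, was at 0.791 ± 0.713 CPM in Prmt5 AKO and 1.097 ± 0.624 CPM in WT.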

How the data were processed

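RNA-seq of eWAT from 3 Prmt5 AKO and 3 WT libraries was analysed, 1 library per sample. By the study's methods and the submitters' processing notes, poly-A enriched libraries were checked with FastQC 0.11.9, trimmed with Trim Galore 0.6.0, aligned to GRCm38 with STAR 2.7.10a, reduced to uniquely mapped pairs and counted per gene with featureCounts (Subread 2.0.1). Whether counting used strand is not given in the sources used here. The authors deposited a signal per gene and library, which is CPM on effective library sizes. In each library 100% of values were whole reads within 0.05 of a read, and the recovered reads entered only the alternatives that need reads. The study mentions a batch correction, but its batches and method are not given in the sources used here, the labels name no batch, and none was fitted apart from the replicate block. Columns of the authors' own comparison (fold changes, p-values) and enrichment tables were left out.

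The 16109 genes that reached 0.5 CPM in 3 or more libraries were tested. Genotypes were compared with limma 3.58.1 (lmFit, eBayes with trend) on log2(CPM + 0.5), Prmt5 AKO minus WT, with Benjamini-Hochberg adjustment over all genes kept. This scale understates differences in genes of low level. Calls needed an adjusted p under 0.05 together with a log2 difference larger than 0.5 either way, as in the study. The design had assumed plain CPM, and its test was kept. Prmt5 was compared by an exact permutation test. Over all genes the standard error had a median of 0.37 on the log2 scale. The fit was tested on simulated counts without library differences shared by many genes, so that test does not show how the fit behaves on these libraries.

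The 42 genes and the other lists were chosen with earlier results of these data known. Values of all libraries are given for those of the 42 genes without overlap between genotypes, with an unadjusted p under 0.05, called by any tool, named in the study's text on cholesterol (Mvk, Mvd, Fdft1, Sqle, Dhcr7, Lcat), and for Srebf2, Scap, Insig1 and Insig2. Hmgcs1, Idi1, Sc5d and the neighbouring gene Arid4b were given in full after their values were seen, and so were Rce1, Rnf145, Gramd1a and Cyp39a1, which had the smallest p of their lists. The 5 promoters and the ratios of gene pairs were also chosen after the values were seen. Positions are from GENCODE release M21, and shared transcript sequence is from blastn 2.17.0 (97% identity over at least 75 bases). Alternatives were other pseudocounts, filters, scalings, adjusted p alone, edgeR 4.0.16, DESeq2 1.42.0, a replicate block and each library left out. Scripts ran in R 4.3.3 and in Python 3.11.15 (with scipy 1.17.1, numpy 2.4.6, matplotlib 3.10.9, pandas 2.3.3).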

Additional observations from a re-analysis of the deposited data

How the results depend on the processing

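The count of called genes was 0 with limma and stayed 0 under both other pseudocounts, both other filters, both other scalings, adjusted p alone and edgeR's quasi-likelihood test. It was 301 with DESeq2 and 162 with edgeR's likelihood ratio test, and between 0 and 84 as each library was left out, with 84 without Prmt5 AKO library 1. Among the 42 genes 1 was called with DESeq2 (Sqle). The labels number the libraries 1 to 3 in each genotype, but deviations of same-numbered libraries correlated at 0.68, 0.57 and -0.11, so the numbers were not taken to pair the libraries. A replicate block, fitted on those numbers all the same, gave 129 called genes in limma, none of the 42, and 682 in edgeR's likelihood ratio test, of which 4 were among the 42, with adjusted p of 0.0245 (Mvk), 0.0364 (Fdft1), 0.0268 (Sqle) and 0.00335 (Dhcr7). The median log2 fold change of the enzymes was between 0.41 and 0.64 over all alternatives, and 14 of 19 stayed positive in those that kept every library and every enzyme. None of the 42 changed sign in the alternatives that kept every library (38 of them were tested with the filter at 2 CPM). As single libraries were left out, 12 of the 42 genes changed sign at least once: Hmgcs1 (-0.39 to 0.67), Cyp51 (-0.015 to 0.33), Tm7sf2 (-0.39 to 0.26), Hsd17b7 (-0.70 to 0.18), Insig1 (-0.24 to 0.37), Mbtps1 (-0.051 to 0.22), Lrp1 (-0.029 to 0.48), Npc2 (-0.056 to 0.71), Osbp (-0.27 to 0.0053), Lcat (-0.48 to 0.30), Nceh1 (-0.049 to 0.62) and Ch25h (-0.10 to 0.16). None of these had been called, and the cause was not tested. The 10 genes without overlap between genotypes kept their sign throughout. When single libraries are left out, the lack of overlap fixes this in advance, so it adds nothing about these genes. Depth limits Fdps, Soat2 and Ch25h, which had 99, 91 and 83 reads in all 6 libraries.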
